A study of Mus musculus with 42 samples.

Results

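The probes of 8 genes of the circadian clock's output and repressor arm were followed across the whole series: the PAR bZIP transcription factors Dbp, Tef and Hlf, the REV-ERB nuclear receptors Nr1d1 and Nr1d2, and the period genes Per1, Per2 and Per3. A probe was taken when the array's own annotation gave it 1 of these symbols, which found 14 of 34891 probes that carry a symbol, and all 8 of the 21186 genes they stand for were detected in both tissues. The genes were chosen by name and function, with earlier results of these data known.

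RNA of aorta and of skeletal muscle was measured in 7 groups of male mice, with 3 mice a group and 42 arrays in all. The mice were 18 to 20 weeks old before the diet and gavage described below began. Their age when tissue was taken is not known here. The healthy group (G) was C57BL/6 given saline, and the 6 other groups were KK/Ay mice, a strain that becomes obese and develops type 2 diabetes on its own. The diabetic group (A) was KK/Ay given saline. The macroangiopathy group (C) was KK/Ay made a model of large-vessel disease by a high-fat diet with L-NAME, which blocks nitric oxide synthase, for 8 weeks, and was given saline. Such model mice were given a Chinese herbal compound (group B, SHENQI) or one of its component formulas (group D, yangyinyiqi, and group E, huoxue) by gavage for 8 weeks, and the rosiglitazone group (F) was the same model given that insulin sensitizer by gavage for 8 weeks. No group holds a C57BL/6 mouse with diabetes or a KK/Ay mouse without it, so strain and disease cannot be told apart in any comparison with the healthy group. The hour at which tissue was collected is not given in the sources used here, so it too cannot be told apart from the groups.

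In most cells, the activators BMAL1 (Arntl) and CLOCK switch on the period and cryptochrome genes from E-box elements, and the PER and CRY proteins then shut the activators down, which closes a loop of about a day. The same activators drive the REV-ERB receptors, which bind ROR elements and repress Arntl, and the PAR bZIP factors, which bind D-box elements and carry the rhythm to genes of metabolism. Arntl therefore usually peaks at a time of day when Dbp, Nr1d1 and the period genes are low, and Per1 also answers quickly to glucocorticoids and to cAMP.

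Windows of 250 bases before an annotated start were given by the RefSeq tables for 7 of the 8 genes (9 windows, build GRCm38.p6), and both strands were searched for the E-box CACGTG, the D-box TTATGTAA or TTACGTAA, the ROR element AGGTCA and the cAMP element TGACGTCA. Over 32851 promoter windows of the genome, which also hold the 50 bases after the start, 7.15% held this E-box, 1.06% the D-box, 16.3% the ROR element and 1.79% the cAMP element. The windows of Per3, Tef, Per1 and Hlf are printed because they hold an E-box, a D-box or a cAMP element, and every element found in them stands in capitals. A match is a description of the letters only. The Per3 window holds 2 D-boxes, from -205 to -198 and from -158 to -151 relative to the start, and each Tef window holds 1 E-box. The window of the upstream Per1 start holds an E-box from -166 to -161 and a ROR element on the opposite strand from -137 to -132, and the Hlf window ends in a cAMP element from -9 to -2. The Nr1d2 window holds 1 ROR element, from -77 to -72, and none of the other elements, and is not printed.
Per3, chr4:151044666-151044915, minus strand: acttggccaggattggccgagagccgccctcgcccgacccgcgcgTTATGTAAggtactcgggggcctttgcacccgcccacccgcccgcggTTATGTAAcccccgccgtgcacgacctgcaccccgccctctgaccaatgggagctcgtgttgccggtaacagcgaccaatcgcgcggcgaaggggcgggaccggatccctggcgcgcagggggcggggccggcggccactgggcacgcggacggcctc
Tef start 1, chr15:81802423-81802672, plus strand: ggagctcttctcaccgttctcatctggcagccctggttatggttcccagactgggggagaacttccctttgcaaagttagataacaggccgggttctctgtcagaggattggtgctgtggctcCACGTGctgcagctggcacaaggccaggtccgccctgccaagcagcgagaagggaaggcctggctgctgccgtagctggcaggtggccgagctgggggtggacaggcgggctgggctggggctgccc
Tef start 2, chr15:81811164-81811413, plus strand: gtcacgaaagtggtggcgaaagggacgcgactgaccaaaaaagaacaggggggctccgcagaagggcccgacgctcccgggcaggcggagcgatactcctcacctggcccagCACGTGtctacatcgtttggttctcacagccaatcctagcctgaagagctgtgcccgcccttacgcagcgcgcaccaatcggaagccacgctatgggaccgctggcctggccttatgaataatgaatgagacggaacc
Per1 upstream start, chr11:69098699-69098948, plus strand: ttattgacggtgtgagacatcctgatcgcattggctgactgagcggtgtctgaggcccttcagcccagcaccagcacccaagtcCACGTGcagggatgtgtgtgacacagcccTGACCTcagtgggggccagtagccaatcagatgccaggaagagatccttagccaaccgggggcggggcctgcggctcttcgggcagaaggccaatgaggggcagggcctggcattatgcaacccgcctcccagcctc
Hlf, chr11:90390918-90391167, minus strand: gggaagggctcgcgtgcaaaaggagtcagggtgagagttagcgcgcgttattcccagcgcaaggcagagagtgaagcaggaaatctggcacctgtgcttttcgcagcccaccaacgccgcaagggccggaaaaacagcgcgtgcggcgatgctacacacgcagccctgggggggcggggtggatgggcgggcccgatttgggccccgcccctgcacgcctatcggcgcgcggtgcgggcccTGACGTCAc

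Values are log2 intensities after quantile normalization over the 42 arrays, averaged over a gene's probes, so a difference of 1 is a factor of about 2 in signal, and levels are not compared between genes. Each array had 20200 to 30274 probes well above background. Smooth muscle genes (5 markers) averaged 12.39 to 14.63 on every aorta array of the KK/Ay groups and 9.41 to 10.88 in skeletal muscle, but 9.66, 13.47 and 12.42 on healthy aorta arrays 1, 2 and 3, so that array 1 stood at the level of muscle tissue. Skeletal muscle genes (5 markers) ran from 7.41 to 15.49 over the aorta arrays, with diabetic aorta 2 the highest, and from 16.18 to 16.97 in skeletal muscle. The fat list averaged at least 12.11 on every aorta array, so the tissue labelled aorta also held fat. In such bulk tissue, fewer cells of a type and less RNA per cell cannot be told apart.

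Of the 14 probes, 13 lay above background on all 21 arrays of both tissues and 1 Tef probe on 20 in each. In mm9 coordinates of the array design, the Dbp probe lies at chr7:52965265-52965324, the Per3 probe at chr4:150379256-150379315, the Hlf probe at chr11:90199978-90200037 and the Per1 probe at chr11:68922878-68922937. Tef was read by 4 probes, Nr1d1 by 3 and Per2 by 2. The Tef probes gave differences between diabetic and healthy aorta of 0.78 to 1.61, all upward. The Per2 probes gave 1.24 and 0.26, with the larger value from the brighter probe, so the size of a Per2 difference depends on the probe.

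Of the 8 genes, 7 differed between the tissues by limma over all 42 arrays with group as a term, beside 76.4% of all genes tested, so a tissue difference is the rule on these arrays. Nr1d2, a nuclear receptor that represses Arntl, averaged 9.29 in aorta and 10.15 in skeletal muscle (difference -0.85, SE 0.09, adjusted p = 1.52e-10), and its close relative Nr1d1 averaged 7.74 and 8.33 (difference -0.59, SE 0.11). Tef and Per1 also stood lower in aorta, by -0.42 and -0.28. Hlf, Per2 and Per3 stood higher in aorta, by 0.30, 0.16 and 0.38, and these 3 turned to -0.053, -0.63 and -0.53 with slide as a fixed block, under which none of the 8 was called. Only slide 4 held both tissues, with healthy muscle 3 beside diabetic aorta 2 and 3. With slide fixed, the tissue contrast rests on that slide and on different groups, so that fit cannot decide a tissue difference. Dbp averaged 14.14 and 13.79, and its tissue difference of 0.35 (SE 0.23, adjusted p = 0.165) was within the spread.

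Replicates of a group spread widely for Dbp and narrowly for Nr1d2 in muscle. The pooled SD of Dbp within groups was 0.86 in aorta and 0.63 in skeletal muscle, larger than that of 96.2% and 98.8% of genes. The SD of Nr1d2 in skeletal muscle was 0.09, and only 7.18% of genes varied less. The median gene had an SD of 0.28 in aorta and 0.17 in muscle. Without the healthy mice the pooled SD of Dbp in aorta was 0.56, beside 0.26 for the median gene.

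**Figure D1:**
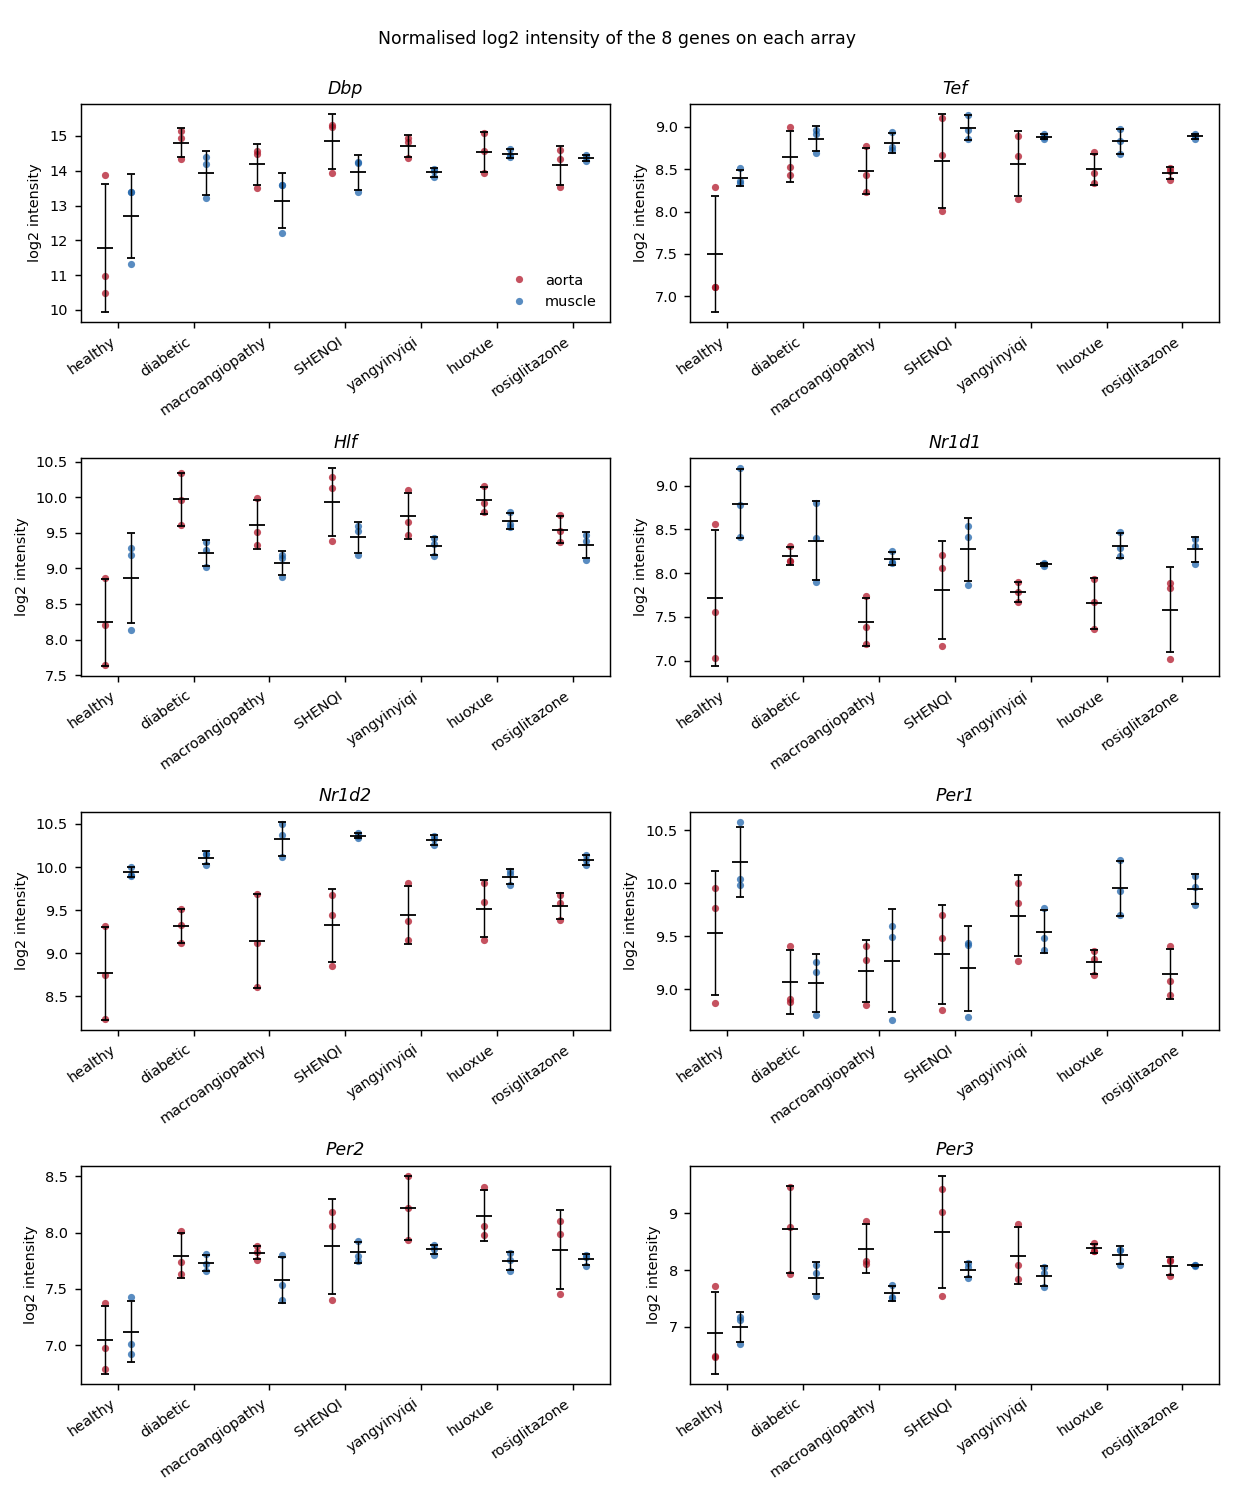
Normalised log2 intensity (vertical axis) of each of the 8 genes in the 7 groups (horizontal axis), with 1 point for each array, aorta in red and skeletal muscle in blue. Healthy aorta arrays 1 and 3 lie below every other aorta array for Dbp, at 10.98 and 10.47, while healthy aorta array 2, at 13.88, lies among them.

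Dbp, Hlf, Tef, Per2 and Per3 stood higher in diabetic KK/Ay than in healthy C57BL/6 mice, and Per1 stood lower, but few of these differences passed adjustment over all genes. Over both tissues, Per3 was higher by 1.35 (SE 0.31, limma adjusted p = 0.0328) and Per2 by 0.68 (SE 0.14, adjusted p = 0.0179). These 2 of 8 genes compare with 4.5% of the 14808 genes tested. The fit over both tissues took all arrays as independent. Aorta and muscle arrays may come from the same mice, so its p-values may be too small. Before adjustment 5 of the 8 were higher and 1 lower at p below 0.05, as 22.1% of genes were in either direction, and the median of the 8 differences was 0.74, beside 0.03 over all genes. Per2 passed under each of 14 alternative settings (adjusted p from 0.000373 to 0.04) and failed only without diabetic muscle 1 (0.0521) when single arrays were left out. Per3 passed under 13 of the 14 (0.000258 to 0.0803 over all).

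Per3, a period gene that acts mainly on the clock's output, read 6.49, 7.73 and 6.47 on the 3 healthy aorta arrays and 9.47, 8.77 and 7.93 on the diabetic ones. In skeletal muscle it read 7.17, 7.13 and 6.70 in healthy mice and 7.96, 7.55 and 8.09 in diabetic mice. All diabetic arrays lay above all healthy arrays in both tissues. Groups apart in the same direction in both tissues were seen for 6.59% of genes tested. The difference was 1.83 in aorta (SE 0.41, adjusted p = 0.048, limma), a factor of 3.54, and 0.87 in muscle (adjusted p above the threshold). Of the 7 genes with a promoter window, Per3 alone held the D-box that DBP, TEF and HLF bind, in the window printed above. Its part in the Per3 values was not tested. The aorta call was lost when any of 10 single arrays was left out (adjusted p up to 0.142), and the call over both tissues when any of 5 was (up to 0.0824).

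Per2, a core repressor of the activators, read 6.98, 7.38 and 6.79 in healthy aorta and 8.02, 7.63 and 7.74 in diabetic aorta. In skeletal muscle it read 6.92, 7.01 and 7.43 in healthy and 7.81, 7.66 and 7.72 in diabetic mice. The groups did not overlap in either tissue, in the same direction, as for 6.59% of genes tested. The differences were 0.75 in aorta (adjusted p = 0.0835) and 0.61 in muscle (unadjusted p = 0.0106, limma). They passed only when both tissues were fitted jointly, with all arrays taken as independent.

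Hlf, a PAR bZIP factor of liver, muscle and other tissues, read 8.21, 8.87 and 7.65 in healthy aorta and 10.35, 9.61 and 9.96 in diabetic aorta. No healthy array reached the lowest diabetic one, as for 10.5% of genes in this direction, and the difference was 1.73 (SE 0.36, adjusted p = 0.0358, limma), a factor of 3.31. This call was lost when any of 8 single arrays was left out (adjusted p up to 0.119) and under 4 of 15 alternative settings (up to 0.167). In skeletal muscle the groups overlapped: Hlf read 9.18, 9.28 and 8.14 in healthy and 9.38, 9.02 and 9.26 in diabetic mice. The Hlf difference in aorta minus that in muscle was 1.38 (adjusted p = 0.606 for the interaction in limma). None of the 8 interactions passed adjustment, beside 0.0743% of genes. With Per3, Hlf made 2 of 8 genes called in aorta, beside 2.22% of all genes tested, and none was called in skeletal muscle by limma, where 1.45% of genes were and where 1 of the 8 was higher and 1 lower at unadjusted p below 0.05, beside 12.7% of genes.

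Dbp, the albumin D-box binding protein and a strong marker of clock phase, had the largest differences and the largest spread. It read 10.98, 13.88 and 10.47 in healthy aorta and 15.15, 14.35 and 14.93 in diabetic aorta. Healthy aorta arrays 1 and 3 lay far below the diabetic arrays and healthy aorta array 2 lay just below them. The difference of 3.03 (SE 0.82), a factor of 8.19, had an adjusted p of 0.0889 in limma. In skeletal muscle Dbp read 13.38, 13.40 and 11.31 in healthy and 14.40, 13.23 and 14.19 in diabetic mice, which overlap, with 1 healthy array far below the others. Without healthy aorta 2, the aorta comparison called 6 of the 8 genes, and without healthy aorta 1 or 3 it called none. The share of all genes called in these fits is not given here, so the counts do not show that the 8 stand out.

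Tef, the thyrotroph embryonic factor, followed the same order with smaller differences. It read 7.11, 8.29 and 7.11 in healthy aorta and 8.998, 8.52 and 8.43 in diabetic aorta, a difference of 1.15 (adjusted p = 0.0752, limma). In skeletal muscle it read 8.36, 8.51 and 8.33 against 8.97, 8.69 and 8.92. The groups were apart in the same direction in both tissues, as for 6.59% of genes tested.

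Per1, the period gene most quickly induced by hormones, went the other way in skeletal muscle. It read 10.04, 9.99 and 10.58 in healthy and 9.17, 8.75 and 9.26 in diabetic muscle, and all healthy arrays lay above all diabetic ones. Groups apart in either direction in muscle were seen for 30.1% of genes tested. The difference was -1.14 (SE 0.30, adjusted p = 0.107, limma). In aorta it read 9.77, 9.96 and 8.87 against 9.41, 8.91 and 8.88, which overlap. Over both tissues the Per1 difference was -0.80 (adjusted p = 0.0668).

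Neither REV-ERB receptor was called in this comparison. Nr1d1 read 7.03, 8.56 and 7.56 in healthy aorta and 8.31, 8.14 and 8.14 in diabetic aorta, and 8.41, 9.20 and 8.78 against 8.40, 7.90 and 8.81 in muscle. Its difference over both tissues was 0.03 (adjusted p = 0.968, limma). Nr1d2 read 8.75, 9.32 and 8.24 in healthy aorta and 9.12, 9.32 and 9.51 in diabetic aorta. In muscle, where replicates lay close together, it read 9.90, 10.004 and 9.91 against 10.15, 10.02 and 10.15. That muscle difference was 0.17, and the groups did not overlap. Groups without overlap in muscle were common, at 30.1% of genes tested.

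Of these arrays, 1 slide held both groups in aorta. On it, diabetic aorta 1 exceeded the mean of healthy aorta 1 and 3 by 4.42 for Dbp, 2.99 for Per3, 2.42 for Hlf, 1.89 for Tef, 1.13 for Per2, 1.01 for Nr1d1, 0.63 for Nr1d2 and 0.10 for Per1. Dbp and Per3 led and Per1 came last here and in the full aorta comparison, where the Per1 difference was -0.46. These arrays are also part of the full comparison, so the like order is no separate support. Healthy aorta arrays 1 and 3 also had lower smooth muscle marker values than array 2, as given above, and the 5 smooth muscle differences between diabetic and healthy aorta were all positive with a median of 1.87, though none was called by limma. The 3 blood markers, 2 globins and Alas2, averaged 15.43 to 16.63 on the diabetic and 13.69 to 15.19 on the healthy aorta arrays, and none of them was called either. All 5 skeletal muscle and all 5 cardiac muscle markers were higher in diabetic aorta too, with median differences of 2.29 and 1.36 and none called. The fat, endothelium and nerve lists each held 1 lower gene. The part of tissue composition in the result was not tested. Healthy aorta 2, whose Dbp was 13.88, shared its slide with SHENQI aorta 2 and 3, at 13.94 and 15.32.

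**Figure D2:**
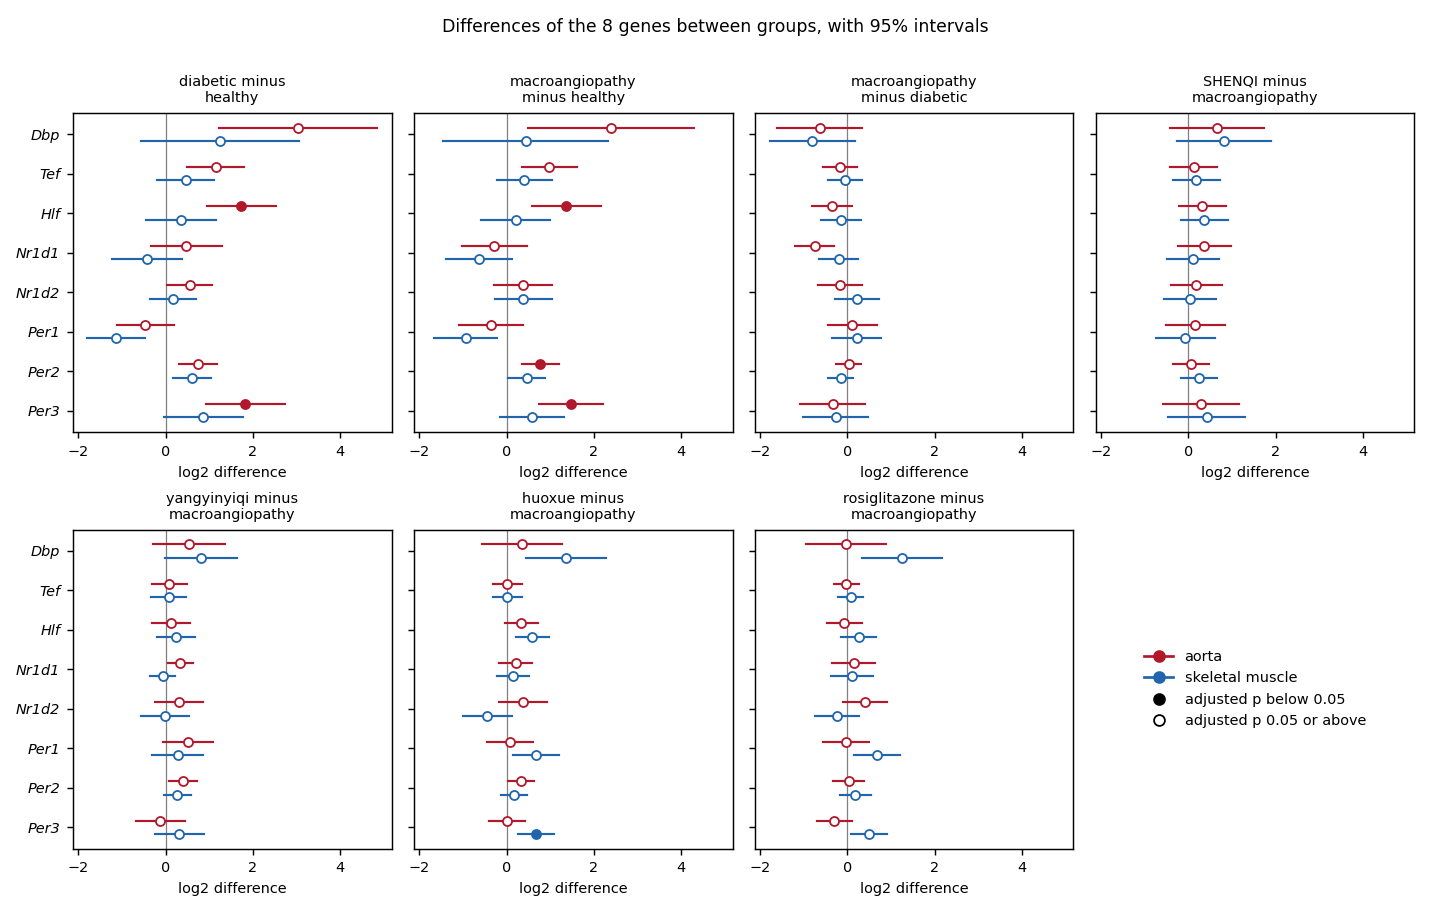
Difference in log2 intensity (horizontal axis) of each of the 8 genes (vertical axis) in the 7 comparisons, 1 panel each, with aorta in red, skeletal muscle in blue and lines for the 95% interval of limma. Filled points have an adjusted p below 0.05, and they are Hlf (1.73) and Per3 (1.83) in diabetic against healthy aorta, Hlf (1.37), Per2 (0.78) and Per3 (1.49) in macroangiopathy against healthy aorta, and Per3 (0.68) in huoxue against macroangiopathy muscle.

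The macroangiopathy group was compared with the same healthy mice, so its differences share their values with those of the diabetic group. Model and healthy arrays shared no slide, so slide and group cannot be told apart in either tissue of this comparison. Over both tissues 6 of the 8 genes were on the higher side of healthy in the model and 7 in diabetic mice. In aorta Per3 read 8.87, 8.11 and 8.16 in the model, a difference from healthy of 1.49 (SE 0.33, adjusted p = 0.03, limma). Hlf read 9.99, 9.33 and 9.51, a difference of 1.37 (adjusted p = 0.0476), and Per2 read 7.88, 7.76 and 7.83, a difference of 0.78 (adjusted p = 0.0418). The Per2 value averages 2 probes, of which the brighter gave 1.47 and the other 0.08. All model arrays lay above all healthy arrays for Per3, Hlf and Per2, as for 16.5% of genes tested, and the 3 of 8 called compare with 6.16% of genes. Omitting any of 8 single arrays lost the call of Per3, any of 10 that of Hlf and any of 9 that of Per2 (adjusted p up to 0.135). Blood markers moved with these genes: all 3 were called higher in model aorta (median difference 1.75, lowest adjusted p = 0.00542, limma), with means of 16.21 to 16.38 on the model arrays. The 5 smooth muscle markers had a median difference of 2.47 with 1 called higher, and averaged 14.15 to 14.54. The part of either cell type in the clock gene values was not tested. Dbp read 14.48, 13.50 and 14.56, which overlaps healthy aorta array 2, and its difference of 2.40 had an adjusted p of 0.12.

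In skeletal muscle of the model none of the 8 genes was called against healthy mice by limma, where 1.56% of genes were, and 1 was higher and 1 lower at unadjusted p below 0.05, beside 13.9% of genes. Per1 was the lower gene, with 8.71, 9.49 and 9.60 in the model, all under the healthy arrays (difference -0.93, adjusted p = 0.232), and 28.7% of genes had groups apart in 1 direction or the other. Over both tissues Per2 (0.62, SE 0.14, adjusted p = 0.0286) and Per3 (1.04, SE 0.26, adjusted p = 0.0415) were called, beside 5.17% of genes, and these calls were lost when any of 8 and any of 10 single arrays was left out. With slide as a random block, or with replicate number as a block, none of the 8 was called in this comparison.

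The comparison of the model with the diabetic group asks what diet and L-NAME added within KK/Ay, but no slide held arrays of both groups. A difference between slides can therefore also enter these values. None of the 8 genes differed between the macroangiopathy and the diabetic group by limma after adjustment, over both tissues or in either, where 0% of genes were called over both tissues, 0.0318% in aorta and 0% in muscle. Over both tissues 2 of the 8 were lower at unadjusted p below 0.05, beside 5.12% of genes in either direction. Nr1d1 in aorta read 8.31, 8.14 and 8.14 in diabetic and 7.74, 7.20 and 7.39 in model mice, and all model arrays lay below (difference -0.75, SE 0.21, adjusted p = 0.385, limma), and 9.57% of genes had groups apart in either direction. Dbp was the other gene, with a difference of -0.72 over both tissues (95% interval -1.37 to -0.07, adjusted p = 0.958). For Per2 the interval over both tissues, -0.26 to 0.14, was the narrowest of the 8.

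The SHENQI compound and its yangyinyiqi part gave no called gene among the 8 against the model by limma, in either tissue or both, and 0% of all genes were called. With SHENQI, Dbp alone had an unadjusted p below 0.05 over both tissues, beside 2.71% of genes, with a difference of 0.74 (adjusted p = 1). It read 15.27, 13.94 and 15.32 in aorta and 14.23, 13.38 and 14.25 in muscle, against 14.48, 13.50 and 14.56 and 12.22, 13.59 and 13.59 in the model, and the groups overlapped in both tissues. With yangyinyiqi, 3 of the 8 had an unadjusted p below 0.05 over both tissues, all upward, beside 3.41% of genes in either direction. These were Per2 at 0.33, Dbp at 0.67 and Per1 at 0.40, each with an adjusted p of 0.999 in limma.

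Yangyinyiqi arrays of Per2 in aorta read 8.22, 7.93 and 8.50 and lay above the 3 model arrays. Such separation upward was seen for 3.81% of genes. On the slides that held both groups, the Per2 difference was 0.40 in aorta and 0.05 in skeletal muscle.

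Per3 was higher in skeletal muscle with the huoxue part than in the model. It read 8.35, 8.09 and 8.36 with huoxue and 7.51, 7.52 and 7.75 in the model, a difference of 0.68 (SE 0.19, 95% interval 0.27 to 1.09, adjusted p = 0.0432, limma). This 1 of 8 genes compares with 10.6% of genes called, so the 8 did not stand out, and none of the 8 was called with huoxue over both tissues or in aorta by limma, where 0% of genes were. Dbp, Hlf and Per1 also lay above the model on all arrays, with Dbp at 14.64, 14.39 and 14.44 against 12.22, 13.59 and 13.59 (difference 1.36, adjusted p = 0.0639). Hlf differed by 0.59 (adjusted p = 0.0547) and Per1 by 0.68 (adjusted p = 0.0967). Nr1d2, at 9.95, 9.92 and 9.79, lay below the model's 10.11, 10.37 and 10.49 on all arrays. Separate groups were the case for 46.7% of all genes in this comparison.

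The huoxue muscle arrays filled a slide with 1 rosiglitazone array, the model lay on other slides, and slide and group cannot be told apart here. With slides 1, 3 and 11 as a batch term the Per3 difference was 0.31 (adjusted p = 1), and it was not called when any of 7 single arrays was left out (adjusted p from 0.0508 to 0.132). The skeletal muscle markers averaged 16.18 to 16.53 on the huoxue muscle arrays and 16.85 to 16.92 on the model's, which do not overlap, with none of the 5 called by limma, and their part in the Per3 value was not tested. In aorta the huoxue difference of Per3 was 0.00 (95% interval -0.41 to 0.41).

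With rosiglitazone none of the 8 genes was called by limma, where 0.00631% of all genes were over both tissues, 0% in aorta and 3.5% in skeletal muscle, and 3 of the 8 were higher at unadjusted p below 0.05 in muscle, beside 18.5% of genes in either direction. These were Dbp, at 14.44, 14.27 and 14.41 (difference 1.24, adjusted p = 0.13), Per1, at 10.07, 9.97 and 9.79 (0.68, adjusted p = 0.149), and Per3, at 8.10, 8.09 and 8.07 (0.49, adjusted p = 0.174). All 3 rosiglitazone arrays lay above the model for each, as for 19.4% of genes. Rosiglitazone and model arrays shared no slide, so in muscle slide and group cannot be told apart. In aorta the Dbp difference was -0.03 (95% interval -0.94 to 0.89). On the slide that held healthy muscle 1 and 2 with rosiglitazone muscle 2 and 3, Per3 read 7.17 and 7.13 against 8.09 and 8.07.

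Over all 7 groups, the F test of limma called Hlf in aorta (adjusted p = 0.0341), beside 1.32% of genes, and in skeletal muscle called Per3 (0.000108), Nr1d2 (0.00145), Per2 (0.00156), Tef (0.00434), Per1 (0.00523) and Dbp (0.0364), beside 36.2% of genes. The Hlf call was lost when any of 11 of the 21 arrays was left out (adjusted p up to 0.229), and that of Dbp in muscle when any of 8 was (up to 0.0699). In aorta Hlf averaged lowest in the healthy group and highest in the diabetic group. In muscle Per3 averaged lowest in healthy mice and highest with huoxue. Without the healthy arrays, a setting chosen after the data were seen, none of the 8 was called in aorta. With slides 1, 3 and 11 as a batch term none was called in muscle and 5 were in aorta.

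Some of the 8 genes varied together across arrays. Of 28 pairs in each tissue, 15 in aorta and 9 in skeletal muscle had a Pearson correlation over 21 arrays that passed a permutation test with 100000 resamples (two-sided, Benjamini-Hochberg over 56 values), and all of these were positive. Over all 28 pairs r was positive for 28 in aorta (median 0.55) and for 17 in muscle (median 0.105, lowest -0.49). The share among pairs of other genes was not computed. The healthy arrays stand apart for several genes, so each value is given again over the 18 KK/Ay arrays, an added setting in which 12 pairs in aorta and 8 in muscle passed. The highest was Tef with Per3 in aorta (r = 0.92, rho = 0.89, permutation adjusted p = 0.000112 for r and 0.00014 for rho), at 0.82 both without the 2 arrays farthest from the median and over the KK/Ay arrays (permutation adjusted p = 0.000896). Tef with Hlf in aorta had r = 0.92 and rho = 0.84, and 0.80 over the KK/Ay arrays. Dbp with Hlf in skeletal muscle had r = 0.90 and rho = 0.75, with 0.73 without the 2 farthest arrays and 0.79 over the KK/Ay arrays. Dbp with Per3 had r = 0.87 and rho = 0.88 in muscle, where deviations from the group means gave 0.78, and r = 0.84 and rho = 0.67 in aorta.

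Dbp with Per1 had r = 0.10 in aorta and 0.03 in skeletal muscle over all arrays. Over the KK/Ay muscle arrays it had r = 0.74 (permutation adjusted p = 0.00217), with 0.84 for deviations from the group means, so in muscle the healthy mice, with high Per1 and low Dbp, lay off a relation seen in the others. Nr1d1 with Dbp in aorta had r = 0.52 over all arrays (rho = 0.60, permutation adjusted p = 0.0339) and 0.80 over the KK/Ay arrays (permutation adjusted p = 0.000896). After deviations from slide means 22 of the 56 values passed, and after deviations from group means 14.

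**Figure D3:**
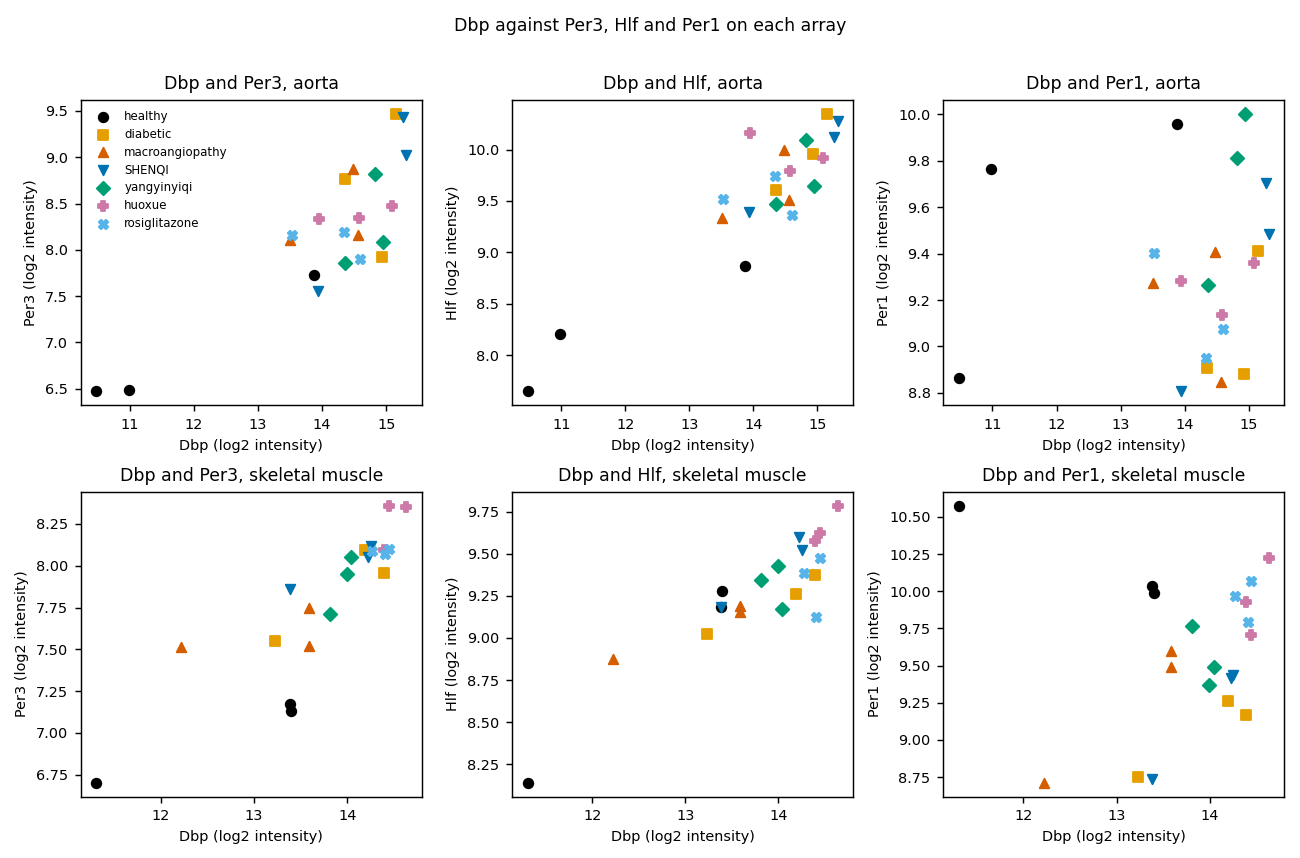
Log2 intensity of Dbp (horizontal axes) against Per3, Hlf and Per1 (vertical axes) in aorta and in skeletal muscle, with 1 point for each of 21 arrays and a colour and marker for each group. Dbp rises with Per3 (r = 0.84 in aorta, 0.87 in muscle) and Hlf (0.91 and 0.90), while the healthy muscle arrays, with Per1 from 9.99 to 10.58, lie above the other arrays of low Dbp.

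Among 27 other clock genes chosen by function, 22 were tested in diabetic against healthy mice. Over both tissues 1 was called higher and 1 lower, beside 4.5% of all genes tested in either direction. The median of the 22 differences was 0.04. The lower gene was Arntl, the partner of CLOCK that sets the phase opposite to Dbp. It ranged from 7.82 to 9.49 in healthy aorta and from 6.68 to 6.81 in diabetic aorta, and from 9.40 to 10.47 against 8.01 to 8.58 in skeletal muscle. The groups were apart in both tissues, as for 6.59% of genes in the same direction, and Arntl differed by -1.86 (SE 0.27, limma adjusted p = 0.00263) over both. Against the healthy group the model's Arntl differed by -1.61 (adjusted p = 0.0141). The higher gene was Bhlhe41, a repressor that competes for E-boxes, at 0.74 (SE 0.15, adjusted p = 0.0161) in diabetic and 0.69 (adjusted p = 0.0331) in model mice.

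Over the 7 comparisons between groups and the F tests 11 of the other clock genes were called, and 10 are named by rule. The F test of skeletal muscle alone called 9 of the 23 tested, beside 36.2% of all genes. Between the tissues 19 of 24 were called, beside 76.4% of all genes tested. Those of the 11 called in the model against healthy mice included Wee1 and Fbxw11. Wee1, a cell cycle kinase with an E-box driven rhythm, differed by 0.81 in aorta (adjusted p = 0.0178, limma). Fbxw11, a ubiquitin ligase that targets PER proteins, differed by 0.39 over both tissues (adjusted p = 0.0408, limma). Cry2, a partner of the PER proteins, was higher with huoxue in skeletal muscle by 0.41 (adjusted p = 0.0352). Clock, Usp2, Alas1, Por and Btrc were called by the F test of skeletal muscle, as 36.2% of all genes were, and in none of the comparisons between groups. Nfil3, a repressor that binds the same D-box as the PAR bZIP factors, was chosen after its values were seen. It ranged from 9.01 to 10.37 in healthy and from 8.43 to 9.05 in diabetic aorta, and its difference over both tissues of -1.10 had an adjusted p of 0.0524 in limma.

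**Figure D4:**
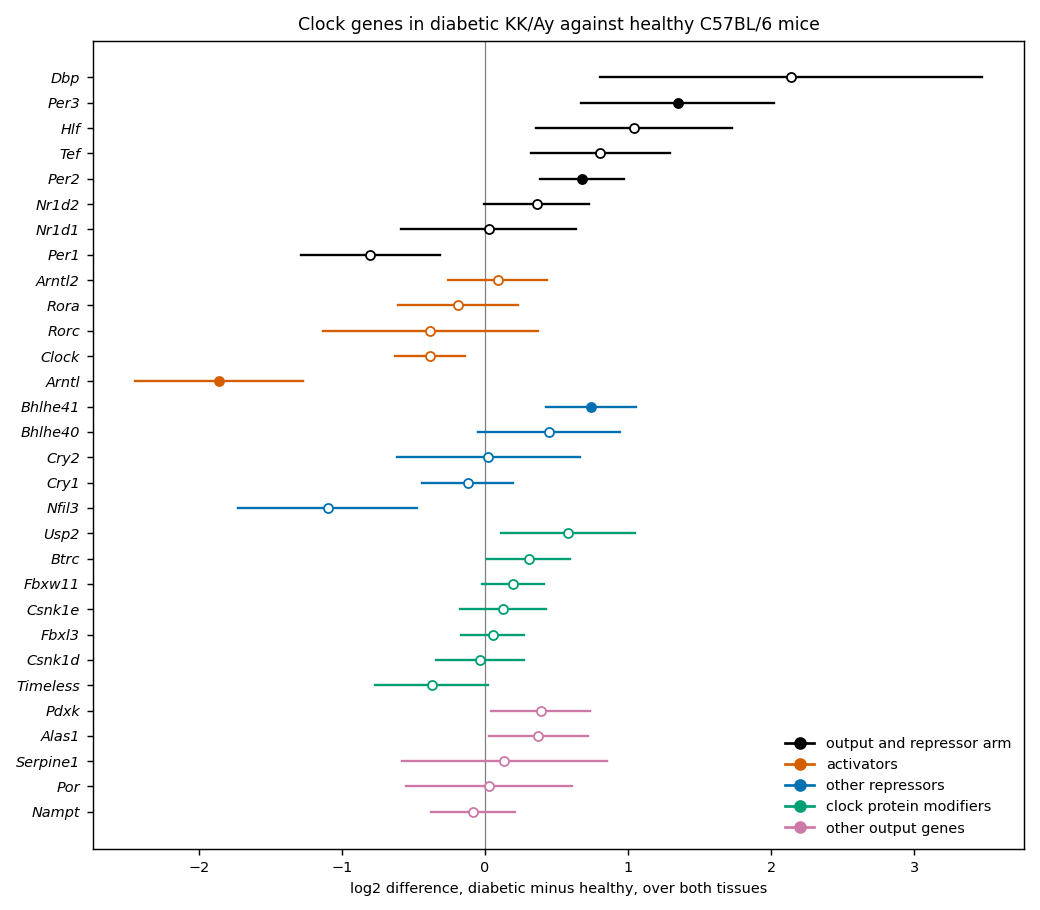
Difference in log2 intensity between diabetic and healthy mice over both tissues (horizontal axis) for the 8 genes in black and 22 other clock genes by role in colours (vertical axis), with lines for the 95% interval of limma and filled points for an adjusted p below 0.05. Per2 (0.68), Per3 (1.35) and Bhlhe41 (0.74) lie above 0 and Arntl (-1.86) below it.

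Of 7 genes tested that answer to glucocorticoids, as Per1 does, 3 were called lower in diabetic than in healthy mice over both tissues and none higher, beside 328 of all 14808 genes called lower. All 7 differences were negative, with a median of -1.38. Cdkn1a, a cell cycle inhibitor, differed by -3.03 (adjusted p = 0.00036, limma), the metallothionein Mt2 by -2.92 (adjusted p = 0.0195) and Fkbp5, a chaperone of the glucocorticoid receptor, by -1.38 (adjusted p = 0.0349). Mt2 ranged from 13.37 to 17.26 in healthy muscle, so healthy mice varied widely. All 8 immediate early genes had negative differences, with a median of -0.60, and Fos alone was called (-1.06, adjusted p = 0.0455). The part of either signal in the Per1 values was not tested.

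By the mean of the 2 within-tissue correlations over 21 arrays each, among 11254 genes above background on all arrays, the pattern most like that of Dbp was that of Ephx1 (mean r = 0.84), then Gdf10 and Nkd1. For Tef it was Cuedc1 (0.86), for Hlf AW549877, for Nr1d1 Pde4dip (0.66), for Nr1d2 Stk35 (0.78), for Per1 the glucocorticoid-responsive Klf9 (0.76), for Per2 Pdxdc1 (0.87) and for Per3 Fry (0.85). Pdxdc1 was also among the 3 most like Tef. The arrays shared slides and groups, so these values describe likeness only.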

How the data were processed

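The authors hybridised Cy3-labelled RNA to single-colour Agilent arrays, 1 array a sample, and scanned them with Agilent Feature Extraction 10.7 per the labels. The deposited files hold each spot's median intensity and local background intensity, not normalised, and the authors' value table holds log2 values whose ranks follow the processed signal (Spearman correlation of at least 0.9998). The scale of that deposited log2 table is otherwise not stated, and its column medians are all 5.36. Here each array's 45018 spots lost 1639 controls, background was corrected by normexp with an offset of 0, and log2 values were quantile normalised over 42 arrays, with spots averaged per probe and probes per gene. A gene was tested where a probe lay well above background on all 3 arrays of a set compared. Comparisons used lmFit and eBayes of limma 3.58.1 in R 4.3.3, with a tissue term or a mean per tissue, and Benjamini-Hochberg adjustment over all genes tested at a threshold of 0.05. The number of arrays, 3 a group and tissue, limits the precision. Groups came from the labels, which do not tie aorta and muscle arrays to a mouse. Fits over both tissues therefore had no mouse term, and their p-values for group differences may be too small. Correlations used Python 3.11.15 and scipy 1.17.1. Scripts were tested on simulated data. Named were the 8 genes, up to 10 other clock genes called in any of the 7 comparisons between groups or F tests, by smallest adjusted p, and the 3 genes most like each of the 8. The genes, the lists and the batch term for slides 1, 3 and 11 were chosen with earlier results of these data known. Alternatives changed the background correction, scaling, filter, probe choice, arrays and terms in the fit, slide and replicate blocks, and left out each array. Coordinates of probes are those of the array design (mm9). A Per2 promoter and the proteins were not analysed here.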

Additional observations from a re-analysis of the deposited data

Results flagged for a closer look

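Of the genes of the lists used here, Alas2 and Tsc22d3 showed an effect that differed between the tissues by the interaction test of limma. Alas2, the heme synthesis enzyme of red cell precursors and a blood marker, had a difference between model and healthy mice that was 2.84 larger in aorta than in skeletal muscle (adjusted p = 0.0474), with 13.87 to 14.11 on model and 11.29 to 12.54 on healthy aorta arrays. Its difference between huoxue and the model was -1.95 lower in aorta than in muscle (adjusted p = 0.00977). Tsc22d3, a gene induced by glucocorticoids, had a difference between huoxue and the model that was 1.04 larger in aorta than in muscle (adjusted p = 0.011), with means of 10.59 against 9.99 in aorta and 11.39 against 11.84 in muscle. None of the 8 clock genes showed such a difference after adjustment.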

How the results depend on the processing

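Calls among the 8 genes moved with the fit, and the cause was not tested. The share of all genes called under each alternative is not given here, so a change in number cannot be read as particular to the 8. Numbers called are given against the values of the report, which were 2 in diabetic against healthy aorta, 2 over both tissues and 0 in muscle, 3, 2 and 0 for the model against healthy mice in aorta, both tissues and muscle, 1 for huoxue and 0 for rosiglitazone against the model in muscle, and 1 and 6 for the F tests of aorta and muscle. For diabetic against healthy aorta, a model of 14 means on every array, a fixed slide block and the batch term for slides 1, 3 and 11 each gave 5, slide as a random block gave 4, no filter and an offset of 50 each gave 1, and the tissue alone, the processed signal, the replicate block and the authors' values each gave 0. Over both tissues, 14 means and the batch term gave 6, slide as a random block 4 and no tissue term 1. In muscle, 14 means gave 2, and the tissue alone and the batch term gave 1. For the model against healthy aorta, 14 means and the batch term gave 5, no filter 1, and the tissue alone, the replicate block and slide as a random block 0. Over both tissues 14 means gave 6, the batch term 4, no filter, the processed signal, quantile normalisation within tissue and the authors' values each gave 1, and no tissue term, the replicate block and slide as a random block 0. In muscle 14 means gave 1. For huoxue in muscle, the tissue alone gave 4, the processed signal 3, slide as a random block, the strict filter and the authors' values 2, and 14 means, no filter, an offset of 50, quantile normalisation within tissue, the replicate block and the batch term 0. For rosiglitazone in muscle the tissue alone and slide as a random block gave 1, and the latter gave 1 for the difference between tissues, Per3. The F test of aorta gave 2 with the brightest probe, 5 with the batch term, and 0 with the replicate block or without the healthy arrays, and that of muscle gave 0 with the batch term. Between tissues 7 became 3 with slide as a random block and 0 with it fixed, where Hlf (-0.053), Per2 (-0.63) and Per3 (-0.53) turned. Only slide 4 held both tissues, so the fixed block cannot decide a tissue difference. Of 56 pairs, 24 passed over all arrays and 14 as deviations from group means, 11 of them in both, and in the latter Per2 with Per3 in muscle turned to -0.10 (r). Leaving out single arrays gave 0 to 6 for diabetic against healthy aorta and 0 to 4 over both tissues, 0 to 5 and 0 to 3 for the model, 0 to 3 for huoxue and 0 to 1 for rosiglitazone in muscle, 0 to 2 and 5 to 7 for the F tests, and 6 to 8 between tissues. Equal replicate numbers did not pair the samples (correlations of deviations from -0.52 to 0.592). The F tests with slide as a fixed block were not run, since groups could not be separated from slides. Of the 8 genes' calls against healthy mice, Per2 over both tissues in diabetic mice held under every alternative fit other than leaving out diabetic muscle 1. These fits averaged the Per2 probes or took the brighter one, which had the larger difference, and the dimmer probe alone was not fitted.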
